A study of Asparagus officinalis with 12 samples.

Results

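The genes described here are gibberellin-regulated protein 6-like (LOC109822577) and gibberellin-regulated protein 9 (LOC109824490), 2 of the 35166 genes measured in stems of asparagus (Asparagus officinalis 'Fengdao 2'). For short they are called protein 6-like and protein 9, and all values are of their RNA. They were picked by name because both were abundant in young stems, so their level in young against later stems is given as a description without a test. They were read beside the other 12 genes whose description starts with the words gibberellin-regulated protein, which makes a family of 14 genes. RNA of stem segments was sequenced in 12 libraries, 3 per stage, from stems that were 10 cm high (stage H-10), 25 cm (H-25), 40 cm (H-40) or 60 cm (H-60) and 13 to 15 mm thick. At H-10 the segment was taken 3 to 6 cm from the soil surface and at every later stage 17 to 20 cm from it, so the step to H-25 also changes the position on the stem. All stems were of the same cultivar, no stage received a treatment, and the methods give a number of biological replicates per stage without saying how many stems entered each library. The p-values therefore measure the spread between these libraries, which may be technical in part. The table heads its columns H1 to H4, and these were read as the 4 heights in ascending order.

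Gibberellins are plant hormones that promote stem elongation, and they act by removing DELLA proteins, which hold back growth. The gibberellin-regulated proteins, known as the GASA family after a gibberellin-stimulated gene of tomato and its Arabidopsis relatives, are small secreted peptides with a conserved cysteine-rich end. In Arabidopsis and rice, members of the family were linked to cell division and cell elongation, and some respond to gibberellin in opposite directions. Snakins of potato and peamaclein of peach belong to the same family, and snakins are known as antimicrobial peptides.

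Values are FPKM, the number of fragments scaled by gene length and library, so levels can be compared between genes. The libraries held 13468440 to 16980659 fragments, and 1 fragment in a gene of 1 kb was worth 0.0522 to 0.0795 FPKM. Summed over all genes, FPKM was 639620 to 652294 at H-10 and 713652 to 783004 at H-25. It was 672548 to 724539 at H-40 and 670337 to 692894 at H-60. The main fit did not rescale for this, so small differences of H-10 vs. H-25 may hold part of it. H-25 replicate 2 stood apart from the other H-25 libraries. Its summed FPKM of cytosolic ribosomal proteins was 50020, against 94529 and 84277 in replicates 1 and 3, and that of genes for secondary walls was 227, against 42.9 and 29.6. The H-25 differences of both genes, and those of the family genes that passed a test, are therefore also given without it.

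Gibberellin-regulated protein 6-like was the most abundant gene of the family in all 9 libraries up to H-40. The gene lies on the minus strand of chromosome 8 of the assembly Aspof.V1, from 94005505 to 94006514, with a counted length of 665 bases. Its FPKM was 2385, 1312 and 2015 at H-10, and 3200, 2379 and 2985 at H-25. The 2 young stages overlapped, since H-10 replicate 1 lay above H-25 replicate 2. At H-40 the FPKM was 286, 153 and 435, and at H-60 it was 21.8, 44.2 and 36.1. No library of H-40 reached the young stages, and no library of H-60 reached H-40. Among all genes of a library, its place from the top was 8 to 29 in the 6 young libraries, 229 to 810 at H-40 and 2924 to 5587 at H-60.

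The stage means of protein 6-like were 1904 ± 545, 2855 ± 425, 291 ± 141 and 34.0 ± 11.3 FPKM (SD, n = 3) from H-10 to H-60. On the scale of log2(FPKM + 1), the difference of H-10 vs. H-25 was 0.62 with a standard error of 0.37 and did not pass the test (limma, adjusted p = 0.368), and its 95% interval ran from -0.20 to 1.43. The difference of H-25 vs. H-40 was -3.40 with a standard error of 0.37, given without a test. Protein 6-like fell again from H-40 to H-60, by 2.99 on the log2 scale with a standard error of 0.37 (limma, adjusted p = 7.09e-04), and it was lower in all 3 libraries of H-60. Without H-25 replicate 2, the first of these differences was 0.74 and the second -3.53 on the log2 scale. In bulk stem segments, fewer cells of a type and less RNA per cell cannot be told apart.

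Gibberellin-regulated protein 9 lies on the plus strand of chromosome 9, from 20233642 to 20235859, with a counted length of 881 bases. Its FPKM was 474, 561 and 560 at H-10, and 763, 488 and 638 at H-25. These stages overlapped, and H-25 replicate 2 was again the lowest library of H-25. At H-40 the FPKM was 111, 135 and 137, and at H-60 it was 104, 95.1 and 127. The stages H-40 and H-60 overlapped as well, and all 6 libraries of these stages lay below all 6 young libraries. Its place among all genes was 106 to 221 in the young libraries, 916 to 1048 at H-40 and 877 to 1272 at H-60.

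The stage means of protein 9 were 532 ± 49.8, 629 ± 138, 128 ± 14.2 and 108 ± 16.4 FPKM (SD, n = 3). The difference of H-10 vs. H-25 was 0.22 on the log2 scale with a standard error of 0.20 (limma, adjusted p = 0.56), and its 95% interval ran from -0.21 to 0.65. The difference of H-25 vs. H-40 was -2.28 with a standard error of 0.20, given without a test. That of H-40 vs. H-60 was -0.24 with a standard error of 0.20 (limma, adjusted p = 0.538), and its interval ran from -0.67 to 0.19. Neither tested difference of protein 9 passed. Without H-25 replicate 2, the difference from H-10 was 0.39 and that to H-40 was -2.45.

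**Figure D1:**
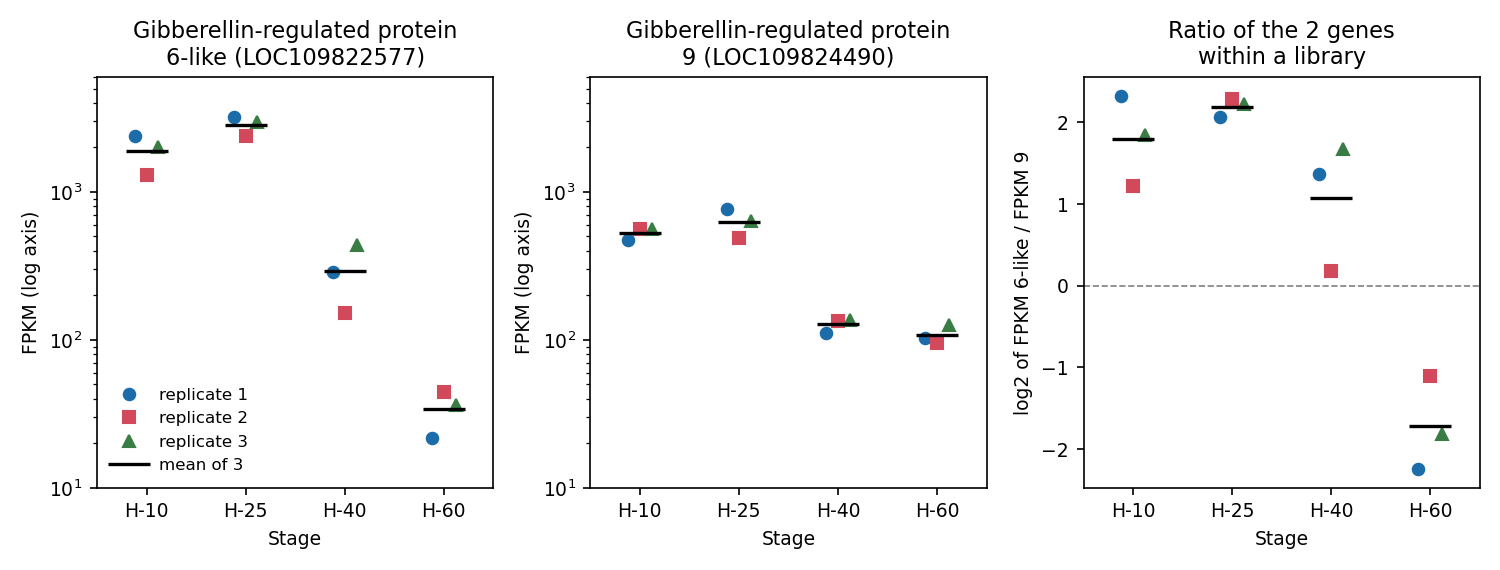
FPKM of gibberellin-regulated proteins 6-like and 9 on log axes by stage, and the log2 ratio of their FPKM within each library; points are the 3 libraries of a stage and black bars their arithmetic mean. Protein 6-like reached 21.8 to 44.2 FPKM at H-60, while protein 9 lay between 95.1 and 137 FPKM at both H-40 and H-60, and the ratio changed sign between these stages.

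The order of both genes was reversed at H-60. Protein 6-like was 5.03, 2.34 and 3.59 times protein 9 at H-10, and 4.20, 4.88 and 4.68 times at H-25. At H-40 the ratio was 2.57, 1.13 and 3.18, and in all 9 of these libraries protein 6-like was the more abundant. At H-60 the ratio was 0.211, 0.464 and 0.285, and protein 9 was the more abundant in all 3 libraries. The mean log2 ratio was 1.80 ± 0.55, 2.19 ± 0.11, 1.07 ± 0.79 and -1.72 ± 0.58 (SD, n = 3) from H-10 to H-60. Between H-10 and H-25 it differed by 0.39, with overlapping libraries (two-sided exact permutation test, p = 0.4). Between H-40 and H-60 it differed by -2.79 without overlap (two-sided exact permutation test, p = 0.1), and 0.1 is the smallest p that 3 libraries against 3 allow, so this test could not pass 0.05.

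Both genes together made up most of the family up to H-40 and less of it at H-60. The summed FPKM of the 14 genes was 2369 to 5517 in the young libraries, 444 to 696 at H-40 and 298 to 315 at H-60. Protein 6-like held 55.4 to 67.6% of it in the young libraries, 34.4 to 62.4% at H-40 and 7.33 to 14.1% at H-60. Protein 9 held 13.1 to 23.7% in the young libraries, 19.6 to 30.4% at H-40 and 30.5 to 40.3% at H-60. The share of protein 9 at H-60 was thus above that in every earlier library, but H-60 replicate 2 (30.47%) hardly exceeded H-40 replicate 2 (30.40%). Its own level was no higher at H-60 than at H-40 by the test. Together they held 71.8 to 84.6% in the young libraries, 64.8 to 82.1% at H-40, where 2 of the 3 libraries lay within the young range, and 42.1 to 51.7% at H-60. These shares are a description, because the level in young stems chose the genes.

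**Figure D2:**
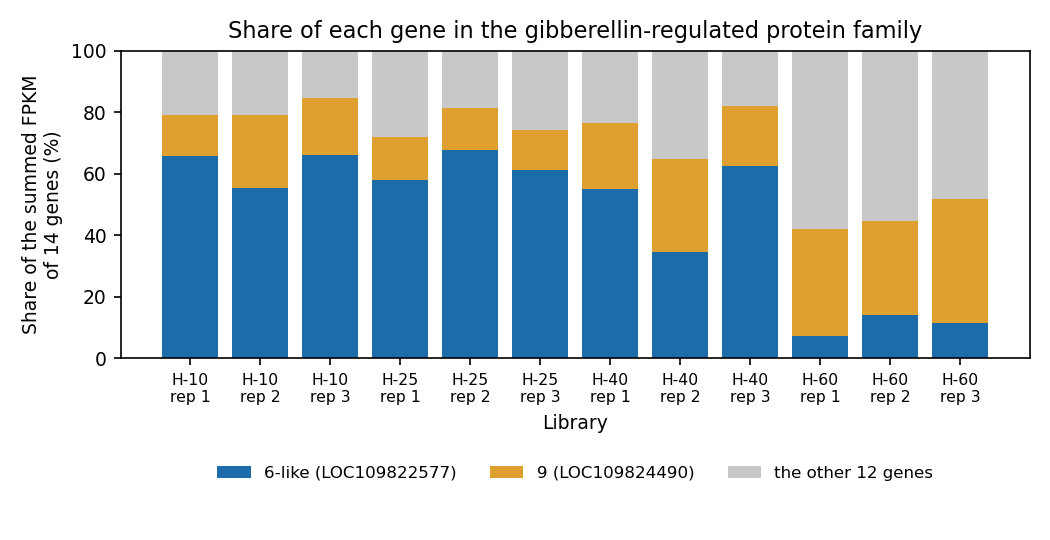
Share of the summed FPKM of the 14 genes described as gibberellin-regulated protein in each library, in percent; blue is protein 6-like, orange protein 9 and grey the other 12 genes. Protein 6-like held 34.4 to 67.6% in the 9 libraries up to H-40 and 7.33 to 14.1% at H-60.

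Markers of dividing cells and of secondary walls changed mainly from H-25 to H-40, the step that was not tested for proteins 6-like and 9. The summed FPKM of 35 genes for cyclins of cell division and B-type cyclin-dependent kinases was 320 to 440 at H-10, 434 to 666 at H-25, 245 to 266 at H-40 and 225 to 268 at H-60. From H-25 to H-40, 16 of the 24 tested genes of this list were called lower and 1 higher, against 12.2% and 11.9% of all tested genes. The 7 genes for secondary walls summed to 52.5 to 243 at H-10, 29.6 to 227 at H-25, 3393 to 4423 at H-40 and 3470 to 6070 at H-60, and all 7 were called higher from H-25 to H-40. From H-40 to H-60, where protein 6-like fell again, the sums of both lists overlapped. At that step 2 of the 24 genes of cell division were called lower, against 2.28% of all tested genes. Of the 7 genes for secondary walls, 1 was called higher, against 3.02%. Histone and replication genes are not in the list of cell division. Those nearest to protein 6-like in profile, given below, had lower means at H-60 than at H-40. They were picked for that likeness, and such genes were not counted as a set. Green tissue genes summed to 4988 to 10505 FPKM at H-10, 9195 to 14261 at H-25, 12909 to 17370 at H-40 and 7330 to 10900 at H-60, so H-60 lay below H-40 without overlap. Of 19 tested, 2 were called higher from H-25 to H-40 and 1 lower from H-40 to H-60, where 2.28% of all tested genes were called lower. Epidermis genes summed to 145 to 199 FPKM at H-10, 137 to 201 at H-25, 85.7 to 93.8 at H-40 and 98.0 to 191 at H-60. Cytosolic ribosomal proteins summed to 34635 to 47346 FPKM at H-10, 50020 to 94529 at H-25 and 15129 to 20835 at H-40 and H-60. Of 209 tested, 36 were called higher from H-10 to H-25, against 1.54% of all tested genes, and 188 lower from H-25 to H-40. The part of these markers in the levels of proteins 6-like and 9 was not tested.

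The other 12 genes of the family held both directions of change. A gene was called when it passed an adjusted p of 0.05 (limma, Benjamini-Hochberg over all 20352 tested genes) and a log2 difference of 1 in size. The filter of at least 1 FPKM in at least 3 libraries was passed by 9 of the 12. From H-10 to H-25, 1 of the 9 was called higher and 1 lower, against 1.54% and 2.91% of all tested genes (4.45% in either direction). From H-25 to H-40, 4 were called higher and 3 lower, against 11.9% and 12.2% (24.1% in either direction). From H-40 to H-60, 2 were called higher and 0 lower, against 3.02% and 2.28% (5.31% in either direction). Some called genes passed the filter only through stages where they were high, as given below. The counts are therefore no support for a direction of the family. The median log2 differences of the 9 genes were -0.23, 1.22 and 0.27, against 0, 0.01 and 0.01 over all tested genes. The first of these is the value of LOC109825701, which had at most 3 fragments in any library of H-10 and H-25.

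The other 2 genes described as 6-like differed in level. LOC109832576 on chromosome 3 had 444, 394 and 379 FPKM at H-10, and 1347, 527 and 1072 at H-25. At H-40 it had 29.0, 25.4 and 50.6 FPKM, and at H-60 35.8, 25.1 and 18.7. It was above protein 9 in all 3 libraries of H-25, and its later stages overlapped each other. From H-25 to H-40 it fell by 4.73 on the log2 scale with a standard error of 0.35 (limma, adjusted p = 3.33e-06), and without H-25 replicate 2 it fell by 5.12. Its difference of H-10 vs. H-25 was 1.17 (adjusted p = 0.0677), and without H-25 replicate 2 it was 1.57 and passed the test (adjusted p = 0.00608). From H-40 to H-60 it differed by -0.37 (adjusted p = 0.593).

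LOC109831558, the third 6-like gene, on chromosome 2, was the family gene called higher from H-10 to H-25. It had 8.86, 7.85 and 13.9 FPKM at H-10, and 87.5, 14.9 and 84.5 at H-25. It had 0.11, 0.36 and 1.23 FPKM at H-40, and 0 fragments in all 3 libraries of H-60. The rise was 2.18 on the log2 scale with a standard error of 0.54 (limma, adjusted p = 0.0361), and from H-25 to H-40 it fell by 5.04 (adjusted p = 3.63e-05). Without H-25 replicate 2, the library at 14.9 FPKM, these differences were 2.99 (adjusted p = 3.46e-04) and -5.86. The first call, though not the difference, was lost without H-10 replicate 1 or 2, without H-25 replicate 1 or 3, and without H-60 replicate 2 (log2 differences of 1.76 to 2.18, adjusted p = 0.0854, 0.122, 0.15, 0.149 and 0.053). It was also lost with a pseudocount of 0.1, no filter, TPM, limma voom and only the 2 stages compared (adjusted p = 0.0863, 0.0657, 0.0513, 0.0572 and 0.17). The counts at H-40 were 1, 3 and 9 fragments, so H-40 and H-60 both lay near the limit of detection. How fragments that match several of the 6-like genes were counted is not stated in any source used here.

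LOC109830668, described as 12-like and by its second description as GAST1, the tomato gene after which the family is named, lies on chromosome 2. It had 243, 65.2 and 49.8 FPKM at H-10, and 113, 87.7 and 90.1 at H-25. At H-40 it had 18.9, 15.6 and 11.7 FPKM, and at H-60 32.9, 12.9 and 14.5. From H-25 to H-40 it fell by 2.60 on the log2 scale with a standard error of 0.50 (limma, adjusted p = 0.0016), and its other differences were 0.06 and 0.27. Without H-25 replicate 2 the fall was -2.66. It was the fourth gene of the family by level in all 6 young libraries.

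**Figure D3:**
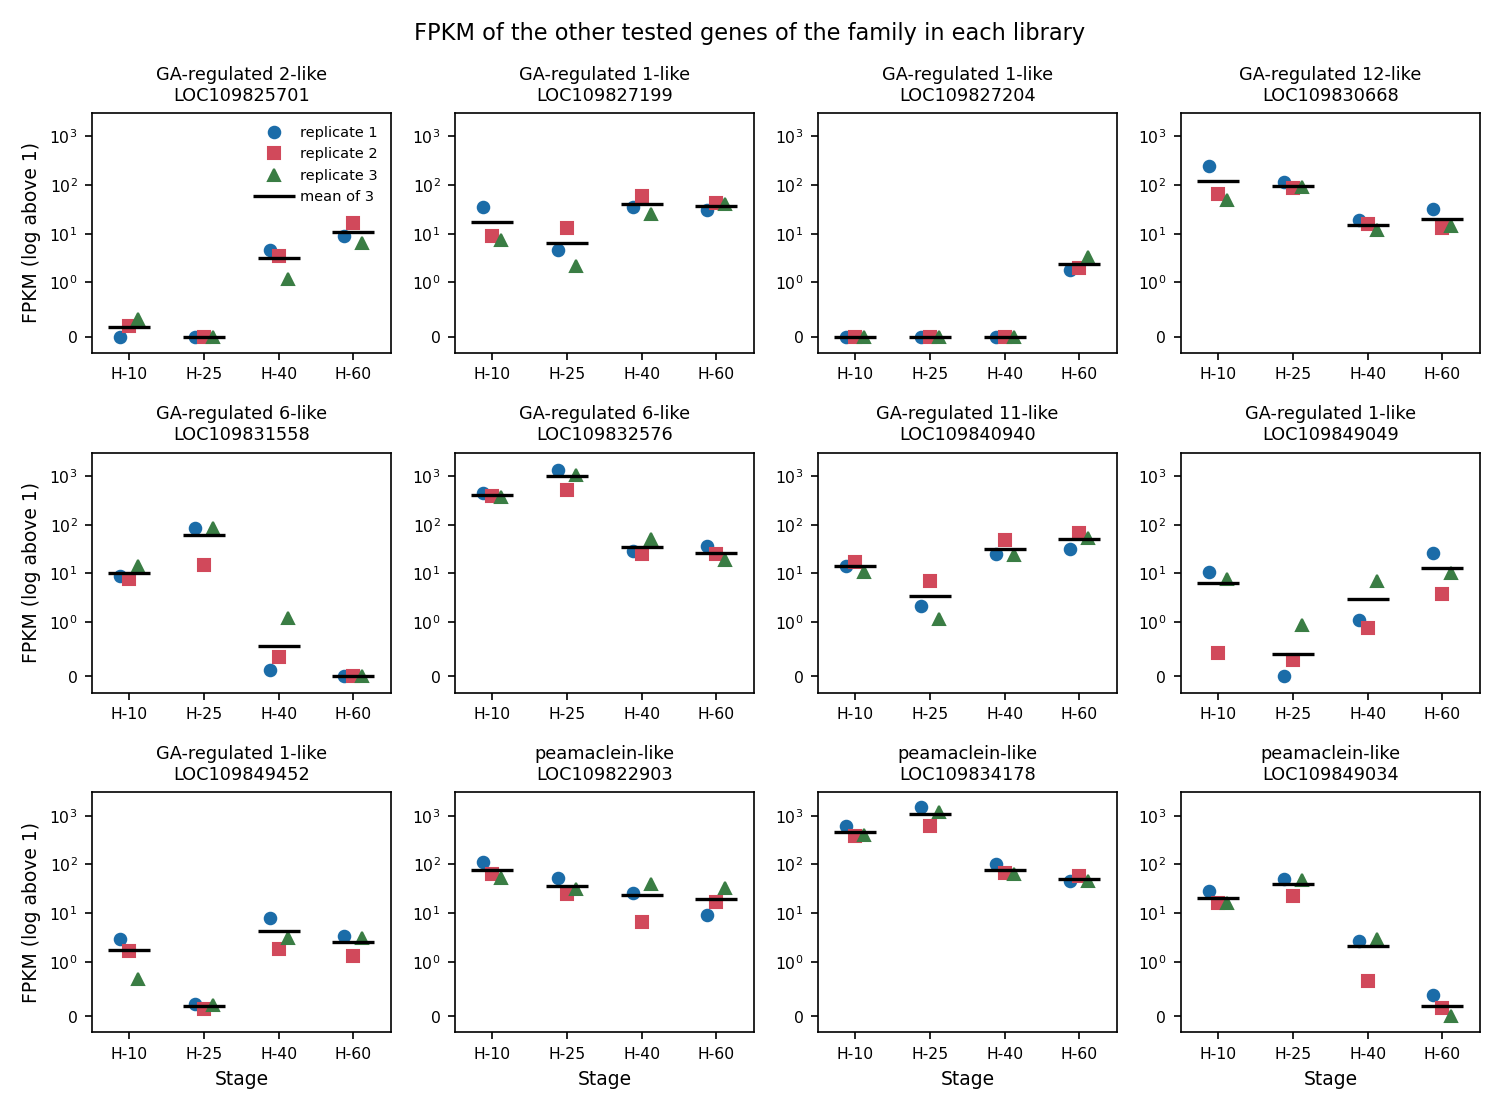
FPKM of the 9 other tested genes described as gibberellin-regulated protein (written GA-regulated) and of the 3 peamaclein-like genes in each library, on an axis that is linear below 1 and logarithmic above; points are libraries and black bars the mean of 3. LOC109832576 lay between 379 and 1347 FPKM in the 6 young libraries and LOC109831558 between 7.85 and 87.5 FPKM, while LOC109840940, LOC109825701 and LOC109827199 were higher at H-40 than at H-25.

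The family genes called higher in later stems stayed below the level that proteins 6-like and 9 had in young stems. LOC109840940, described as 11-like, on chromosome 5, had 14.1, 17.4 and 10.9 FPKM at H-10, and 2.18, 7.05 and 1.19 at H-25. It had 24.5, 48.7 and 23.9 FPKM at H-40, and 32.1, 67.4 and 54.5 at H-60, and was above protein 6-like in all 3 libraries of H-60. From H-10 to H-25 it fell by 1.96 on the log2 scale with a standard error of 0.44 (limma, adjusted p = 0.0252) and from H-25 to H-40 it rose by 3.05 (adjusted p = 2.73e-04), and without H-25 replicate 2 these differences were -2.50 and 3.58. The first call was lost without H-10 replicate 1 or 2 and without H-25 replicate 1 or 3, with log2 differences of -1.95, -1.81, -1.83 and -1.56 (adjusted p = 0.0573, 0.0963, 0.0987 and 0.107). It was also lost with only the 2 stages compared (adjusted p = 0.115). LOC109827199, described as 1-like, had 35.6, 8.85 and 7.29 FPKM at H-10, and 4.55, 13.0 and 2.14 at H-25. It had 35.0, 59.6 and 25.9 FPKM at H-40, and 30.1, 43.1 and 40.5 at H-60. It rose from H-25 to H-40 by 2.64 with a standard error of 0.59 (adjusted p = 0.004), or by 3.22 without H-25 replicate 2, and H-10 replicate 1 lay among the later libraries. Its difference of H-10 vs. H-25 was -1.21 (adjusted p = 0.25), and without H-25 replicate 2 it was -1.79 and passed the test (adjusted p = 0.0482). In both genes H-25 replicate 2 was the highest library of H-25, where it was the lowest for proteins 6-like and 9.

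LOC109825701, described as 2-like, on chromosome 10, had 0 to 3 fragments in each young library. It had 4.66, 3.55 and 1.2 FPKM at H-40, and 9.03, 16.9 and 6.55 at H-60. It rose from H-25 to H-40 (limma, adjusted p = 0.00148), and its mean at H-40 was at least 8.71-fold higher than a floor of 3 fragments per library at H-25. The fitted log2 difference was 1.94 with and without H-25 replicate 2. It rose again from H-40 to H-60 by 1.52 on the log2 scale with a standard error of 0.37 (adjusted p = 0.0272). That second call was lost when H-40 replicate 3 or either of replicates 1 and 2 of H-60 was left out (adjusted p = 0.0945, 0.0668 and 0.128). It was also lost with a pseudocount of 0.1, limma voom or only the 2 stages compared (adjusted p = 0.122, 0.0786 and 0.0809). LOC109827204, described as 1-like, had 0 fragments in 9 libraries and 10, 10 and 19 fragments, or 1.81, 1.95 and 3.28 FPKM, at H-60. Its rise from H-40 to H-60 passed the test (limma, adjusted p = 5.76e-04) and was at least 3.89-fold against the same floor. It passed the filter only through H-60, so its call is no support for a direction of the family, and without any single library of H-60 it was not tested. LOC109825701 likewise passed the filter only through H-40 and H-60, so its rise from H-25 to H-40 is no such support. LOC109831558 passed it through the young stages and H-40 replicate 3, so its fall from H-25 to H-40 is none either.

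LOC109849049 and LOC109849452, both described as 1-like, are neighbours on chromosome 7 with opposite strands. LOC109849452 had at most 0.22 FPKM at H-25 and 1.83 to 8.06 FPKM at H-40, and it rose by 1.99 on the log2 scale with a standard error of 0.42 (limma, adjusted p = 0.00305), or by 1.95 without H-25 replicate 2. LOC109849049 ranged from 0.43 to 10.6 FPKM at H-10 and from 3.84 to 25.9 FPKM at H-60, and passed no test. The 3 genes that did not pass the filter were LOC109827200, with at most 1.12 FPKM, LOC109827965, with at most 0.39 FPKM, and LOC109830757, with 0 fragments in all 12 libraries. LOC109827199, LOC109827200 and LOC109827204 lie on the same unplaced scaffold.

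**Figure D4:**
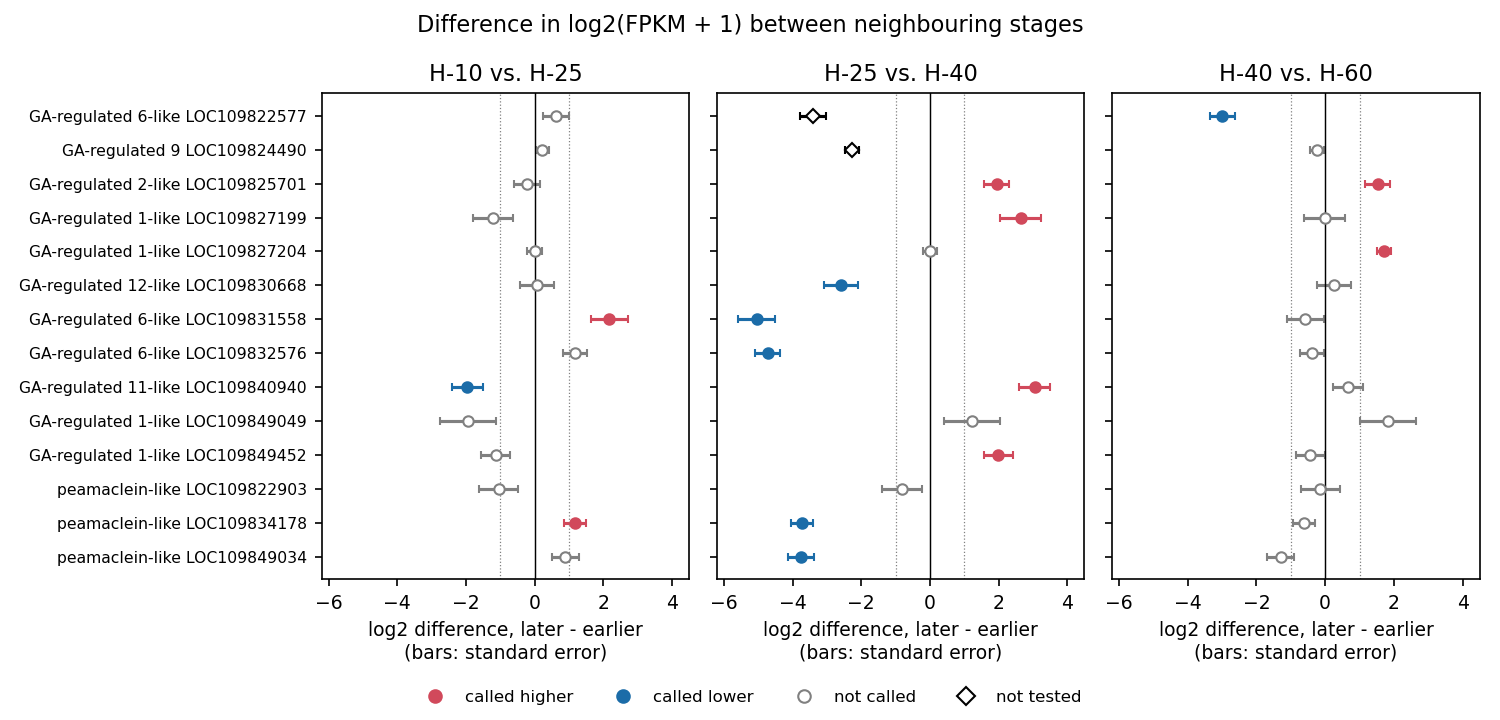
Differences in log2(FPKM + 1), later minus earlier stage, with standard errors from limma for proteins 6-like and 9, the 9 other tested family genes and the 3 peamaclein-like genes; dotted lines mark a log2 difference of 1. Protein 6-like fell by 2.99 from H-40 to H-60, and diamonds mark the comparison that chose the 2 genes and was not tested.

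The 3 peamaclein-like genes, which carry snakin-1 as their second description, were read beside the family. LOC109834178 on chromosome 3 had 613, 381 and 397 FPKM at H-10, and 1483, 603 and 1189 at H-25. It had 99.98, 68.2 and 64.2 FPKM at H-40, and 45.0, 58.7 and 45.5 at H-60. From H-25 to H-40 it fell by 3.73 on the log2 scale with a standard error of 0.32 (limma, adjusted p = 7.79e-06), and without H-25 replicate 2 it fell by 4.11. Its rise from H-10 to H-25, of 1.17 (adjusted p = 0.0486), stood close to the threshold. The call was kept when H-25 replicate 2 was left out, with a difference of 1.55 (adjusted p = 0.00293), or H-10 replicate 1. It was lost without any other single library, with log2 differences of 0.90 to 1.17 (adjusted p between 0.0531 and 0.186). It was also lost with a pseudocount of 0.1, no filter, TPM, quantile scaling, no trend and only the 2 stages compared (adjusted p between 0.0528 and 0.194). LOC109849034 on chromosome 7 had 16.1 to 29.1 FPKM at H-10, 22.1 to 50.5 at H-25, 0.65 to 2.95 at H-40 and 0 to 0.40 at H-60. From H-25 to H-40 it fell by 3.75 (adjusted p = 2.87e-05), and by 4.13 without H-25 replicate 2. From H-40 to H-60 it differed by -1.30 (adjusted p = 0.0661), and with the replicate number as a block this passed the test (adjusted p = 0.0223), as it did without H-25 replicate 2 (adjusted p = 0.0302) or H-40 replicate 2 (adjusted p = 0.0216). Its difference of H-10 vs. H-25 was 0.90 (adjusted p = 0.195), and 1.27 without H-25 replicate 2 (adjusted p = 0.0389). LOC109822903 on chromosome 8 had 53.6 to 111 FPKM at H-10 and 6.74 to 52.4 FPKM in the other libraries, and passed no test.

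Genes that make, inactivate and perceive gibberellin were read as a pathway. Of 51 genes chosen by their descriptions, 23 passed the filter. From H-10 to H-25, 0 were called higher and 1 lower, from H-25 to H-40 5 higher and 2 lower, and from H-40 to H-60 0 in either direction. Over all tested genes these shares were 1.54 and 2.91%, 11.9 and 12.2%, and 3.02 and 2.28%. In either direction they were 4.45, 24.1 and 5.31%. With 7 of 23 genes called at the middle step, near that share, nothing is read about the pathway as a whole. The median log2 differences of the 23 genes were -0.11, 0.39 and 0.13. Without H-25 replicate 2, the numbers called were also 1, 7 and 0.

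In the early steps of synthesis, 2 of 5 tested genes were called higher from H-25 to H-40, against 11.9% of all tested genes. The ent-kaur-16-ene synthase LOC109851541, which makes the hydrocarbon from which gibberellins are built, had 3.12, 5.32 and 4.37 FPKM at H-25 and 8.15, 10.9 and 9.57 at H-40, a rise of 1.01 on the log2 scale (limma, adjusted p = 0.00227). The log2 difference was 0.85 without H-25 replicate 1 and 0.92 without H-40 replicate 2, below the fold criterion. The ent-kaurenoic acid oxidase 2-like LOC109843535, the most abundant gene of this role, had means of 19.2, 17.0, 31.3 and 21.0 FPKM and was not called. None of the 4 tested genes of the last steps of synthesis was called, and gibberellin 20 oxidase 2-like LOC109837967, which makes the precursors of active gibberellins, had means of 2.82, 4.17, 4.14 and 2.23 FPKM.

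Of 6 tested genes for gibberellin 2-beta-dioxygenases, which inactivate the hormone, 3 were called higher from H-25 to H-40, against 11.9% of all tested genes. The 1-like gene LOC109823202 had 24.2, 19.1 and 7.17 FPKM at H-10, and 5.09, 5.53 and 2.47 at H-25. It had 13.2, 12.03 and 11.5 FPKM at H-40, and 17.6, 28.1 and 20.7 at H-60. From H-10 to H-25 it fell by 1.63 on the log2 scale (limma, adjusted p = 0.0261) and rose from H-25 to H-40 by 1.36 (adjusted p = 0.0128). The first call was lost without H-10 replicate 1 or 2 and without H-25 replicate 1 or 3, with log2 differences of -1.31, -1.47, -1.75 and -1.35 (adjusted p = 0.0756, 0.103, 0.066 and 0.113). It was also lost with only the 2 stages compared (adjusted p = 0.154). The second was lost without H-25 replicate 3, with a difference of 1.07 (adjusted p = 0.0601). The 8-like gene LOC109842967 had means of 5.32, 3.92, 9.12 and 10.2 FPKM and rose from H-25 to H-40 by 1.05 (adjusted p = 0.00485), with log2 differences of 0.93 and 0.97 without H-25 replicate 3 and without H-40 replicate 3.

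Of 8 tested genes for reception and signalling, 2 were called lower from H-25 to H-40 and 0 higher, against 12.2% and 11.9% of all tested genes. Both called genes encode PIF proteins, transcription factors that DELLA proteins hold back. The other tested PIF genes, the PIF3-like LOC109843010 and LOC109848277, were not called. From H-25 to H-40 they differed by 0.25 and -0.62 on the log2 scale (limma, adjusted p = 0.56 and 0.0539). PIF4-like LOC109833058 had means of 13.9, 8.23, 1.83 and 1.11 FPKM, and from H-25 to H-40 it fell by 1.73 on the log2 scale (limma, adjusted p = 2.42e-04). PIF3-like LOC109831947 had means of 71.8, 54.8, 26.7 and 19.4 FPKM and fell by 1.01 (adjusted p = 0.00874), and without H-25 replicate 1 or 3 or without H-40 replicate 2 its difference was -0.86, -0.91 or -0.77. DELLA protein SLR1-like LOC109834899, named after its values were seen, had means of 11.9, 17.3, 35.8 and 45.5 FPKM, and its log2 difference of 0.99 from H-25 to H-40 (adjusted p = 0.00336) lay just under the fold criterion. It passed that criterion when replicate 1 of H-25 was left out (log2 difference 1.03), or replicate 1 or 3 of H-40 (1.14 and 1.003). With all libraries it passed with pseudocounts of 0.1 and 0.5 (1.02 and 1.006), TPM (1.10) and limma voom (1.02). Under the other alternatives that keep the fold criterion it was not called. Gibberellin receptor GID1C LOC109849239 also lay under that criterion, with a log2 difference of 0.75 from H-25 to H-40 (limma, adjusted p = 0.0261).

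The genes with the most similar course were found by centring each profile of log2(FPKM + 1) over the 12 libraries. The root mean square difference from protein 6-like or protein 9 was then taken, over 13114 other tested genes with a description. Adding 1 FPKM understates falls to low levels, so a near gene can fall by a larger fold. This likeness uses the values that chose both genes and is a description. For protein 6-like the nearest was a phosphomethylethanolamine N-methyltransferase-like gene (LOC109847594), an enzyme of phosphocholine synthesis, at a distance of 0.597 log2 units. It had means of 372, 278, 33.9 and 4.51 FPKM from H-10 to H-60. Next came histone H3.3-like (LOC109824139), histone H4 (LOC109820201), origin of replication complex subunit 6-like (LOC109850477) and the replication protein A subunit B of 70 kDa (LOC109849301), at 0.660, 0.670, 0.674 and 0.692. Histone H4, which packs DNA, had means of 177, 268, 28.3 and 4.64 FPKM. Histone H3.3-like had means of 127, 157, 10.0 and 0.23 FPKM, a larger fold fall from H-10 to H-60 than that of protein 6-like. The median distance over all genes was 2.58. The same 5 genes were nearest without H-25 replicate 2, and none of them was among the first 5 when genes were ordered by Pearson correlation.

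Protein 9 had other neighbours. The nearest were ergosterol biosynthetic protein 28 (LOC109833181), alpha-L-fucosidase 2-like (LOC109821099), the ribosomal protein 40S S5-like (LOC109826445), unknown protein 1-like (LOC109822372) and a guanine nucleotide-binding protein subunit beta-like gene (LOC109842818). Their distances were 0.187, 0.202, 0.207, 0.219 and 0.225, with a median of 1.2 over all genes. The 40S S5-like gene, a part of the small ribosomal subunit, had means of 165, 237, 47.01 and 39.7 FPKM. Unknown protein 1-like had means of 6.31, 6.02, 0.80 and 0.41 FPKM, a larger fold fall from H-10 to H-60 than that of protein 9. Without H-25 replicate 2, 4 of the 5 were among the nearest, and 1 of the 5 was among the first 5 by Pearson correlation. Proteins 6-like and 9 lay 1.58 log2 units apart, which put protein 9 in place 286 for protein 6-like, and protein 6-like in place 10669 for protein 9. This distance counts the size of the changes as well as their course. The Pearson correlation of the 2 log2 profiles was 0.913.

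**Figure D5:**
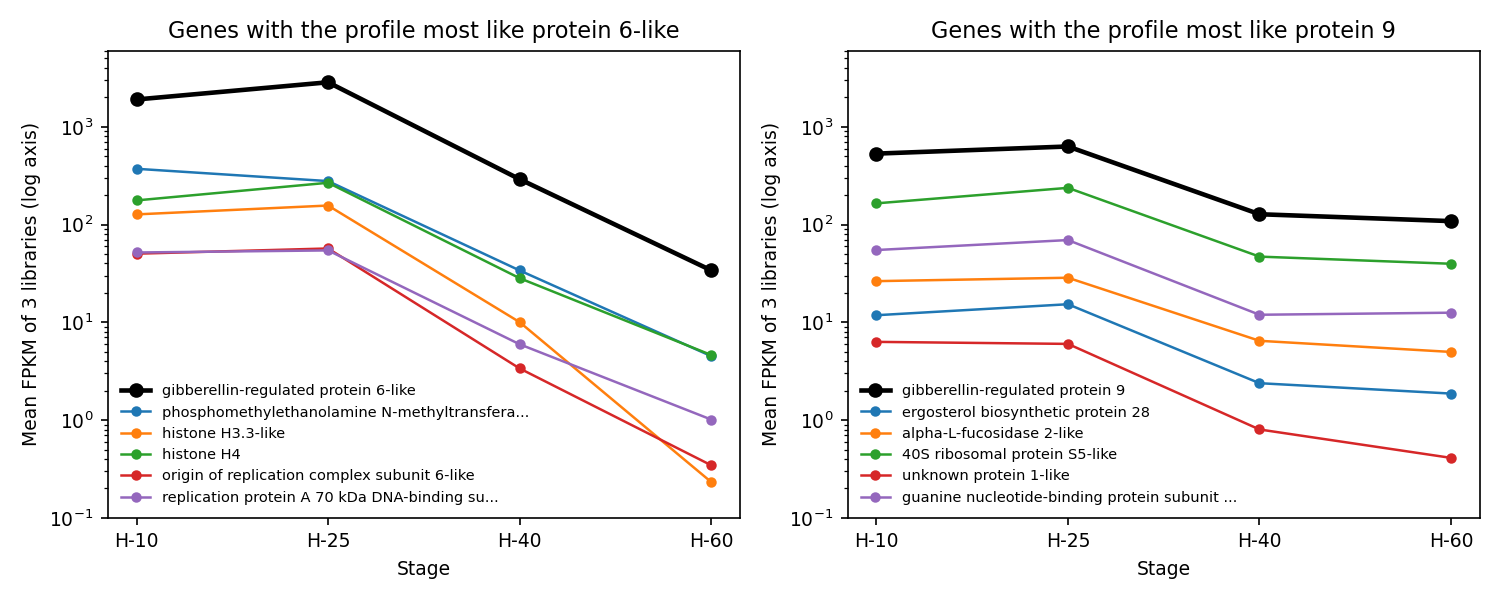
Mean FPKM of 3 libraries by stage on log axes for protein 6-like (left, black), protein 9 (right, black) and the 5 genes with the smallest root mean square difference in centred log2 profile from each. Histone H4, at left, had means of 28.3 FPKM at H-40 and 4.64 at H-60, and the ribosomal protein 40S S5-like, at right, 47.01 and 39.7.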

How the data were processed

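RNA of asparagus stem segments was sequenced by the authors in 12 strand-specific Illumina libraries, 3 per stage. According to the submitters' processing notes, DESeq2, HISAT2, featureCounts and StringTie were used; options and genome build are not given in the sources used here. What the authors deposited is 1 table of FPKM and gene length for 35166 genes. Its 4 mean columns were left aside. Coordinates are those of the deposited table, which equal the RefSeq assembly Aspof.V1 for all 32237 genes with a RefSeq ID. FPKM times gene length gave whole fragments in every library (tolerance 0.01), and the totals of 13468440 to 16980659 fragments limit the precision of low values. Floors of 3 fragments cover counting error only.

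Genes with at least 1 FPKM in at least 3 libraries (20352) were transformed to log2(FPKM + 1), and a limma model (version 3.58.1, R 4.3.3) estimated the mean of every stage over all 12 libraries, using eBayes with a trend. Differences are later minus earlier stage, on a scale that understates changes of low genes. A gene was called at an adjusted p (Benjamini-Hochberg over all tested genes) no higher than 0.05 and a log2 difference of at least 1 in size. The limma model replaces the count model of the study's methods because the deposited values are FPKM. Fragments recovered from them entered a fit only in the limma voom alternative. The ratio of both genes was compared by a two-sided exact permutation test (scipy 1.17.1). Each middle stage enters the comparison before it and the one after it. The fit was tested on simulated data.

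The members and lists were chosen with earlier results of these data known. Named genes are all family and peamaclein-like genes, of each pathway role the tested gene with the highest mean FPKM and every called gene with a stage mean of at least 10 FPKM, and the 5 nearest profiles. Some other genes of reception and signalling were named after their values were seen. Cellulose synthase subunit 8 was left out of the secondary wall list, and the cyclin list was narrowed to cyclins and B-type kinases, after the matches were read. No promoter or protein sequence was used here.

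Replicate numbers are not tied to shared plants or days by the labels. The deviations of same-numbered libraries from their stage means correlated at -0.09 to 0.33 over 18 pairs, and at 0.11 to 0.12 in all 3 pairs of H-40 vs. H-60, so a replicate block was read for that comparison. Also tried were a stricter filter or none, pseudocounts of 0.5 and 0.1, TPM, median-of-ratios and quantile scaling, limma voom on recovered fragments, eBayes without a trend, only the 2 stages compared, no fold criterion, an unadjusted p, and leaving out each library in turn.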

Additional observations from a re-analysis of the deposited data

How the results depend on the processing

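For proteins 6-like and 9, no comparison changed its direction under any of the 25 alternatives run on it, and the tested ones (all but H-25 vs. H-40) kept their side of the threshold. Leaving out 1 library at a time gave, for protein 6-like, log2 differences of 0.37 to 0.80, -3.75 to -3.00 and -3.39 to -2.64 from H-10 vs. H-25 to H-40 vs. H-60. With the replicate number as a block, its difference of H-40 vs. H-60 stayed at -2.99 (limma, adjusted p = 0.00137). Of the other 12 family genes, the 2 called between H-10 and H-25 became 1 without a filter, with TPM and with limma voom, 0 with only the 2 stages compared, 5 with an unadjusted p, and 0 to 4 over the libraries left out. The 4 came without H-25 replicate 2, and the 0 without H-10 replicate 1 or 2 and without H-25 replicate 1 or 3. With a pseudocount of 0.1, LOC109831558 lost its call between H-10 and H-25 while LOC109849452 gained one, as lower. The 2 called between H-40 and H-60 became 1 with a pseudocount of 0.1, limma voom or only the 2 stages, 0 with the stricter filter, and 0 to 2 over the libraries left out, with 0 without H-60 replicate 1 or 2. The 7 called between H-25 and H-40 stayed 7 over all libraries left out. Of the gibberellin pathway, the 1 gene called between H-10 and H-25 became 0 with only the 2 stages and 0 to 1 over the libraries left out. Its 7 genes between H-25 and H-40 became 12 without the fold criterion and 4 to 8 over the libraries left out, with 4 without H-25 replicate 3. Its 0 genes between H-40 and H-60 became 1 with quantile scaling or an unadjusted p and 0 to 1 over the libraries left out, with 1 without H-10 replicate 1 or H-60 replicate 1. LOC109825701 and LOC109827204, the 2 called between H-40 and H-60, did not pass the stricter filter of a mean of at least 5 FPKM. The 0 under that filter was therefore fixed in advance. Without any single library of H-60, LOC109827204 was not tested and so could not count. A fit with fewer libraries has less power by construction, and the cause of the other changes was not tested. The block gave the family counts 2, 7 and 2 as before and changed no call but that of LOC109849034. Of 2550 values of single genes under these alternatives, 2460 kept their side of the threshold, 53 lost and 37 gained a call, and 0 reversed. Genes with under 3 fragments per library, LOC109830757 among them, cannot be told from absent ones at this depth.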

Other observations

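Some genes named as family members only by their second description were looked up after values were seen, and are given as values. LOC109827201, a long non-coding RNA with gibberellin-regulated protein 11 as its second description, on the same unplaced scaffold as LOC109827199, had 61.4, 67.9 and 31.7 FPKM at H-10, and 9.57, 69.8 and 4.49 at H-25. It had 95.6, 127 and 104 FPKM at H-40, and 64.4, 85.3 and 73.9 at H-60. H-25 replicate 2 lay at the level of H-10, and the other 2 libraries of H-25 below all others. A gene without a RefSeq ID, whose second description is gibberellin-regulated protein 3, had 8.17, 32.7 and 21.4 FPKM at H-10, and 63.2, 25.0 and 47.9 at H-25. It had 7.24, 6.51 and 13.0 FPKM at H-40, and 3.01, 5.27 and 7.03 at H-60, with H-25 replicate 2 again the lowest of its stage. The pseudogene LOC109846423, with snakin-1 as its second description, had at most 11 fragments in any library.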
